A study of Mus musculus with 11 samples.

Results

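The transcripts described here are those of 10 genes that are used together as signs of an effector or memory state in T cells: S100a4, S100a6, S100a10, S100a11 and S100a13 of the S100 family, the annexins Anxa1 and Anxa2, the galectin Lgals1, the intermediate filament gene Vim and the LIM domain gene Crip1. They were taken by gene symbol from the 55471 genes of the count table, each symbol matched 1 Ensembl gene, and 10 of 10 were among the 12404 genes with enough counts to be tested. RNA was sequenced from CD4+ cells of the inguinal and axillary lymph nodes, which drain joints, of C57BL/6 mice. The WT group had 5 libraries, from mice labelled wild type with no further allele given. The GLC group had 6 libraries, from Pggt1bfl/flLys-Cre mice, in which Pggt1b, a subunit of an enzyme that attaches a lipid to small GTPases, is deleted in macrophages. The Lys-Cre driver acts in cells of the myeloid lineage, so the deletion is not described for the CD4+ cells measured. In both groups the cells had been enriched by removing other cells with beads and kept in culture for 2 h with concanavalin A at 1.25 µg/ml, a lectin that activates T cells, so no unstimulated level is known. GLC replicate 78 held RNA pooled from 2 mice. The labels used here give neither age nor sex. The question put by the design is how loss of Pggt1b in macrophages bears on gene expression in CD4+ cells of draining lymph nodes.

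S100 proteins are small calcium sensors with paired EF-hand loops that change shape when they bind calcium and then attach to partner proteins. S100a10 is the exception that no longer binds calcium; it forms a complex with Anxa2, and annexins themselves bind membrane lipids in a calcium-dependent way. When naive CD4+ T cells become effector or memory cells, several of these genes are known to be expressed more highly, together with Vim, Lgals1 and Crip1, while genes of lymph node homing are expressed less. Macrophages, fibroblasts and plasma cells also express several of them, so a bulk sample can hold their transcripts from more than 1 cell type.

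Libraries held between 11308285 and 14620148 counts, and the 10 genes together took between 0.0803% and 0.130% of them. T cell genes were abundant: the 12 markers of CD4+ T cells summed to between 5245 and 5880 CPM (counts scaled to a common library size, with TMM factors) in every library. The 10 neutrophil markers summed to at most 0.626 CPM, with 6 of them, S100a8, Ly6g, Elane, Camp, Csf3r and Retnlg, at 0 counts throughout. The 15 macrophage and monocyte markers summed to between 8.32 and 21.3 CPM, of which Cd68 and Ccr2 alone passed the filter on low counts. Of the 15 stromal and endothelial markers, Lum, Pdpn and Ccl21a had 0 counts and Pecam1, which T cells also express, alone passed the filter. The single gene Gm42418, which overlaps ribosomal RNA repeats, took 10.0% of the counts of WT replicate 1 and between 5.99% and 7.82% elsewhere. The 4 Y-linked genes Ddx3y, Eif2s3y, Kdm5d and Uty summed to 633 counts in GLC replicate 9, while the other libraries had 0 or 1. Xist had 11 counts in GLC replicate 9, and between 2992 (GLC replicate 78) and 5943 (WT replicate 3) in the others. By both measures GLC replicate 9 thus stood apart from every other library of either group. The part of sex in the levels of the 10 genes was not tested.

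On the chromosomes, the 5 S100 genes lie in 2 stretches of chromosome 3, all on the plus strand (GRCm38). S100a13 (ENSMUSG00000042312, 90514435 to 90524581), S100a4 (ENSMUSG00000001020, 90603771 to 90606045) and S100a6 (ENSMUSG00000001025, 90612882 to 90624181) form the first, with 6.84 kilobases and 1 protein-coding gene between S100a4 and S100a6. S100a11 (ENSMUSG00000027907, 93520488 to 93526287) and S100a10 (ENSMUSG00000041959, 93555080 to 93564643) form the second, 28.8 kilobases apart with no protein-coding gene between them. The remaining genes are scattered. Anxa1 (ENSMUSG00000024659) lies on chromosome 19 (20373428 to 20390944), Anxa2 (ENSMUSG00000032231) on chromosome 9 (69453620 to 69491795), Lgals1 (ENSMUSG00000068220) on chromosome 15 (78926725 to 78930465), Vim (ENSMUSG00000026728) on chromosome 2 (13573927 to 13582826) and Crip1 (ENSMUSG00000006360) on chromosome 12 (113146316 to 113153879).

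Promoters are shown for 6 genes whose levels varied with others of the 10 across libraries: S100a4, S100a6 and Anxa1 with each other, S100a11 and Vim with each other, and Anxa2 with all of these but Anxa1. Each sequence runs 5′ to 3′ from 250 bases before to 50 bases after the start site in RefSeq (GRCm38.p6), which held such a window for 8 of the 10 genes. Capitals mark any match, on either strand, to 4 short motifs: TATAAA, the letters of a TATA box, then CCAAT, known as the CCAAT box, then GGGCGG, known as a GC box, and TGANTCA, known as an AP-1 type site.
S100a4 (chr3:90603520-90603819, plus strand): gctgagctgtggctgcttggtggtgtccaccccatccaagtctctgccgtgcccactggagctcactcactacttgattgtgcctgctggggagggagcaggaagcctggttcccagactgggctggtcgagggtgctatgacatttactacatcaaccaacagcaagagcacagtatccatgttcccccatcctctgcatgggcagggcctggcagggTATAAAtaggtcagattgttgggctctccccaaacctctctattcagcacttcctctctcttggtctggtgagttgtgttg
S100a6 (chr3:90612644-90612943, plus strand): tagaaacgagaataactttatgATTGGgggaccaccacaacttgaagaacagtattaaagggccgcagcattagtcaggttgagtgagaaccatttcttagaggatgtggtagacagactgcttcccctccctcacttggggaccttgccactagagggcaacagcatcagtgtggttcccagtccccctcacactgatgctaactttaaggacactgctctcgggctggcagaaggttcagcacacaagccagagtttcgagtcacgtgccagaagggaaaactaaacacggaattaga
Anxa1 (chr19:20390622-20390921, minus strand): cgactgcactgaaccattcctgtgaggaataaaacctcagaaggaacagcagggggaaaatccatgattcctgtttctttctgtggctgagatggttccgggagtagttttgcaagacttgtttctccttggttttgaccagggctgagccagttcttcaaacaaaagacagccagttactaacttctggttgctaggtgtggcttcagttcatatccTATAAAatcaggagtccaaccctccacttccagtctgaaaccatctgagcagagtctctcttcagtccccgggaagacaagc
S100a11 (chr3:93520246-93520545, plus strand): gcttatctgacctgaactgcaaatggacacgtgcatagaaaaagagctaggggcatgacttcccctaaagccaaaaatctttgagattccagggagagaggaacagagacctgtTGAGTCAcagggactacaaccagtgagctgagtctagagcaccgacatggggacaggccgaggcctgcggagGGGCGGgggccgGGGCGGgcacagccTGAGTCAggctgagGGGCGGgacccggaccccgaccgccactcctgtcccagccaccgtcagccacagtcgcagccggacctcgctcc
Anxa2 (chr9:69453433-69453732, plus strand): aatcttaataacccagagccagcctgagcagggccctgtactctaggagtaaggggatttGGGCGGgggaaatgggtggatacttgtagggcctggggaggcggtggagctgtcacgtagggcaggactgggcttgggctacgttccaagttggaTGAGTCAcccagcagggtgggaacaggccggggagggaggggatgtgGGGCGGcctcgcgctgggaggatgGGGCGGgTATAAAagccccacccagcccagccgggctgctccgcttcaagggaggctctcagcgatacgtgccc
Vim (chr2:13574061-13574360, plus strand): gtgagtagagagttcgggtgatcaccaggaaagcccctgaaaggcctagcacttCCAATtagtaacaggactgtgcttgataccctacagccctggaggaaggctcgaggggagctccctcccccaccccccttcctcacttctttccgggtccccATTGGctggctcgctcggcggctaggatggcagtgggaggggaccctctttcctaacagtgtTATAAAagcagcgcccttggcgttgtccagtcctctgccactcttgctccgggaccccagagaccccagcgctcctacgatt
TATAAA was found in 4 of the 8 windows, those of S100a4, Anxa1, Anxa2 and Vim, and in 13.6% of all 32851 windows in the RefSeq table. In 3 of these, S100a4, Anxa1 and Vim, it began 31 or 32 bases before the start site, and in Anxa2 17 bases before it. TGANTCA was found in S100a11 and Anxa2, against 7.81% of all windows. GGGCGG was found 3 times each in S100a11, Anxa2 and Crip1, against 35.7% of windows with at least 1 match, and CCAAT in S100a6 and Vim, against 37.4%. In Crip1, 2 of the GGGCGG matches directly adjoin each other. S100a13 held no match to any of the 4. A match is a stretch of letters in a window and shows no binding.

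The 10 genes differed widely in level. Per kilobase of annotated exon, S100a10 was the highest, at 163 ± 20.3 CPM per kilobase in WT (SD, n = 5) and 180.3 ± 30.7 in GLC (SD, n = 6). Vim followed with 76.6 ± 8.87 in WT and 100.2 ± 20.8 in GLC. The order went on through Crip1, S100a11, S100a13, Lgals1 and Anxa2 to S100a6, S100a4 and Anxa1, the lowest, at 0.683 ± 0.301 in WT and 0.774 ± 0.271 in GLC. S100a4 was thus a low transcript in these cells, between 3.78 and 11.2 CPM per kilobase, against between 139 and 224 for S100a10. Each neighbour in the order was compared with the next over the 11 libraries by a two-sided exact permutation test of paired differences, with Benjamini-Hochberg adjustment over the 9 neighbour pairs. S100a10 lay above Vim in 11 of 11 libraries (mean log2 difference 0.96 ± 0.17 SD, exact permutation test, adjusted p = 0.00176). Crip1 against S100a11, S100a11 against S100a13 and S100a13 against Lgals1 did not pass: these neighbour differences of 0.09, 0.08 and 0.20 on the log2 scale had adjusted p-values of 0.332, 0.168 and 0.117 in the exact permutation test. Genes that were not neighbours in the order were not compared. The other 6 neighbour pairs passed. With the longest annotated transcript as the length, Crip1 passed as higher than S100a11 (exact permutation test, adjusted p = 0.00146), while the 3 neighbour pairs from S100a11 through Anxa2 and S100a13 to Lgals1 did not pass.

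Between the groups no gene of the 10 passed the test: 0 of 10 had an adjusted p under 0.05 in edgeR's quasi-likelihood test, as did 0 of all 12404 genes tested (0%). The fitted log2 fold change of GLC over WT was above 0 for 9 of the 10 genes, against 49.9% of all genes tested, and their median was 0.19, against -0.00 for all genes. These genes were chosen with earlier results of the same data known, so that count is a description. For 1 of the 10, Vim, the p before adjustment was under 0.05 and the direction was higher, against 2.75% of all genes; 0 had such a p and a lower direction, against 1.79%. In none of the 10 did every GLC library lie above every WT library, against 0.153% of all genes.

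**Figure D1:**
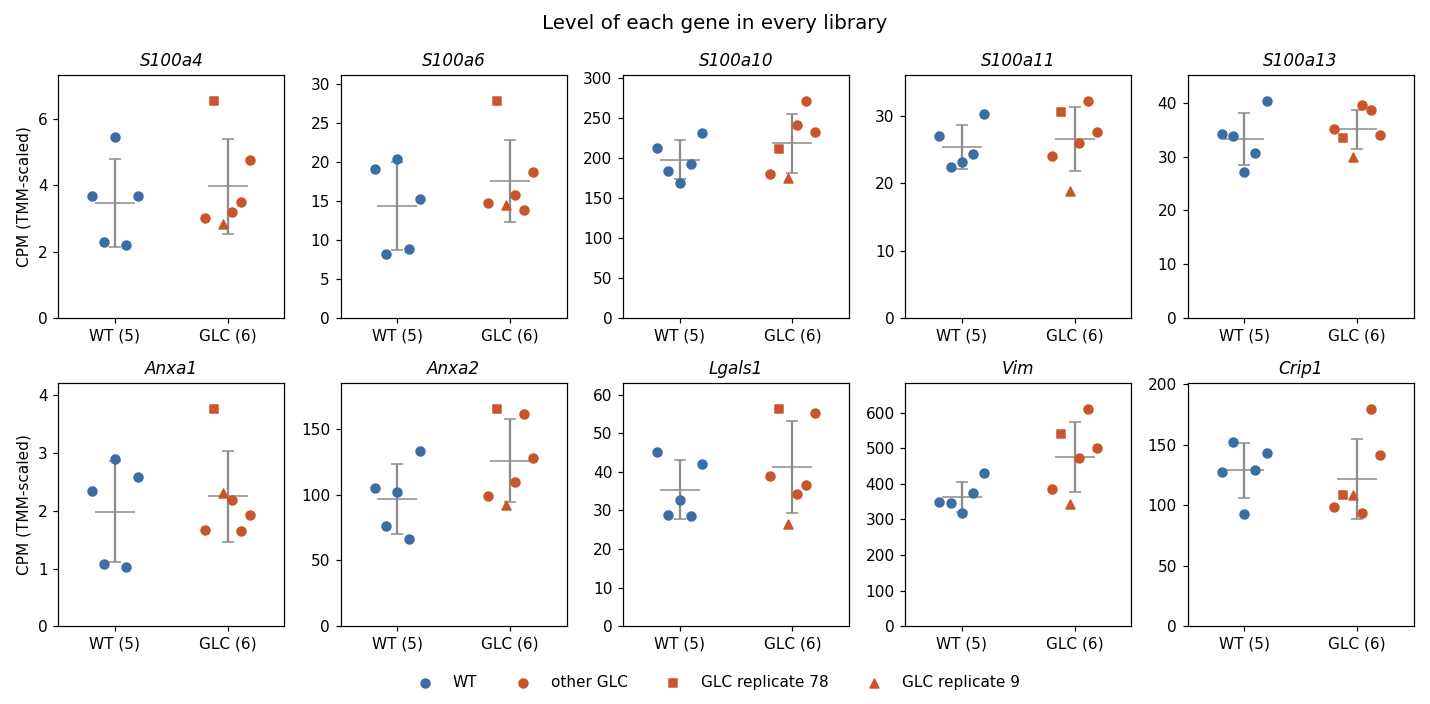
Level of each of the 10 genes in CPM (vertical axis, starting at 0) in the 5 WT and 6 GLC libraries; each point is a library, and the grey bars give the mean and SD of the group. WT and GLC overlap for every gene; GLC replicate 78 (square) is the highest library for S100a4, S100a6, Anxa1, Anxa2 and Lgals1, and GLC replicate 9 (triangle) is the lowest GLC library for S100a4, S100a10, S100a11, S100a13, Anxa2, Lgals1 and Vim.

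Vim encodes vimentin, the main intermediate filament protein of lymphocytes, and had the largest fold change among the 10. Its level in WT replicates 1 to 5 was 348, 347, 319, 374 and 430.2 CPM. In GLC it was 343 CPM at the lowest, 487 at the median and 609.8 at the highest. Of the GLC libraries, 4 lay above the highest WT library, while GLC replicates 9 and 6 lay inside the WT range. The mean was 363 ± 42.1 CPM in WT (SD, n = 5) and 475 ± 98.5 CPM in GLC (SD, n = 6), a 1.31-fold difference with a 95% interval of 1.08 to 1.59. On the log2 scale this was 0.39 (SE 0.13), for which edgeR's quasi-likelihood test gave 0.0103 before and 0.9997 after adjustment over all genes. The difference lay between 0.31 and 0.47 in all 24 other settings and left-out libraries, and its adjusted p was 0.656 or higher in each.

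Anxa2 encodes a membrane-binding annexin that carries S100a10 at the inner face of the plasma membrane. WT replicates 1 to 5 had 105, 76.0, 102, 66.2 and 134 CPM. The GLC libraries ran from 92.1 CPM through a median of 119 to 165. WT replicates 2 and 4 were below every GLC library, and WT replicate 5 was above 4 of them. The difference was 1.30-fold (95% interval 0.986 to 1.72), or 0.38 on the log2 scale (SE 0.19), for which the edgeR test gave 0.0616 before and 0.9997 after adjustment.

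S100a10, its partner, differed less between the groups. WT replicates 1 to 5 had 213, 184, 169, 193 and 231 CPM, and the GLC libraries ran from 175 through 222 to 271 CPM. GLC replicates 10, 11 and 12 were the 3 highest of the 11 libraries, and GLC replicates 6 and 9 lay among the lower WT libraries. GLC exceeded WT by 0.14 on the log2 scale (SE 0.12, 95% interval -0.10 to 0.39). S100a11, a calcium-binding partner of Anxa1, was at 25.4 ± 3.23 CPM in WT (SD, n = 5) and 26.5 ± 4.76 CPM in GLC (SD, n = 6), with libraries between 22.4 and 30.3 CPM in WT and between 18.9 and 32.1 CPM in GLC. Its GLC libraries thus spanned the whole WT range, and the log2 difference was 0.06 (SE 0.13). S100a13, which takes part in the release of proteins that lack a signal peptide, was at 33.2 ± 4.85 CPM in WT, with libraries between 27.2 and 40.3 CPM, and at 35.1 ± 3.58 CPM in GLC, with libraries between 29.9 and 39.5 CPM. Its log2 difference was 0.08 (SE 0.10), and every GLC library lay inside the WT range. For these 3 genes the 95% intervals reached at most 0.39 on the log2 scale, a 1.31-fold difference. With 1 library left out, S100a10 lay between 0.076 (without GLC replicate 11) and 0.21 (without WT replicate 5). S100a11 lay between 0.0061 (without GLC replicate 11) and 0.15 (without GLC replicate 9), and S100a13 between 0.018 (without WT replicate 3) and 0.16 (without WT replicate 5).

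S100a4 and S100a6 were low and varied widely from library to library. S100a4 had 47, 32, 77, 28 and 54 counts in WT replicates 1 to 5, which is 3.68, 2.30, 5.45, 2.21 and 3.67 CPM. In GLC it ran from 2.83 CPM through 3.34 to 6.53, with GLC replicate 78 the highest and GLC replicate 12 the second highest of that group. The fitted difference was 0.20 on the log2 scale (SE 0.29, 95% interval -0.41 to 0.81). It was 0.0027 without GLC replicate 78 and 0.43 without WT replicate 3. S100a6 had 19.2, 8.18, 20.4, 8.91 and 15.3 CPM in WT replicates 1 to 5, and ran from 13.9 through 15.2 to 27.8 CPM in GLC. The WT libraries fell into a low pair, replicates 2 and 4, and a higher trio; GLC replicates 6, 9 and 11 lay in the gap between them, and GLC replicate 78 above all WT libraries. On the log2 scale, 6 of 6 GLC libraries exceeded the mean of WT for S100a6, alone among the 10 genes, and the same held for 5.14% of all genes tested. The log2 difference of 0.29 (SE 0.25, 95% interval -0.24 to 0.82) was 0.11 without GLC replicate 78 and 0.45 without WT replicate 3.

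Anxa1 encodes the annexin that acts through formyl peptide receptors and is induced by glucocorticoids. It was close to the limit of these libraries, with 30, 15, 41, 13 and 38 counts in WT replicates 1 to 5 and between 19 and 49 counts in the GLC libraries. Counting error alone gives a coefficient of variation of about 20.5% at such counts. Its log2 fold change of 0.18 (SE 0.33) was -0.028 without GLC replicate 78. It was 0.021 without WT replicate 2 and 0.016 without WT replicate 4, so these libraries do not settle its direction.

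Lgals1 encodes galectin-1, a secreted lectin that binds galactose-containing sugars on T cells. WT replicates 1 to 5 had 44.99, 28.8, 32.7, 28.5 and 41.9 CPM, and the GLC libraries ran from 26.4 through 37.7 to 56.2 CPM. The lowest and the 2 highest of all 11 libraries were GLC libraries. On the log2 scale GLC was 0.22 above WT (SE 0.19, 95% interval -0.18 to 0.62), with values between 0.12, without GLC replicate 78, and 0.33, without GLC replicate 9, when 1 library was left out.

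Crip1, a small LIM domain protein, was the single gene of the 10 with a fold change below 0, at -0.09 on the log2 scale (SE 0.16, 95% interval -0.44 to 0.26). WT replicates 1 to 5 had 127, 152, 92.7, 129 and 143 CPM, and the GLC libraries ran from 93.5 through 108 to 179 CPM. GLC replicate 11 was the highest of the 11 libraries and 4 of the other 5 GLC libraries lay below the WT mean. With 1 library left out the value lay between -0.22, without GLC replicate 11, and -0.017, without GLC replicate 10.

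**Figure D2:**
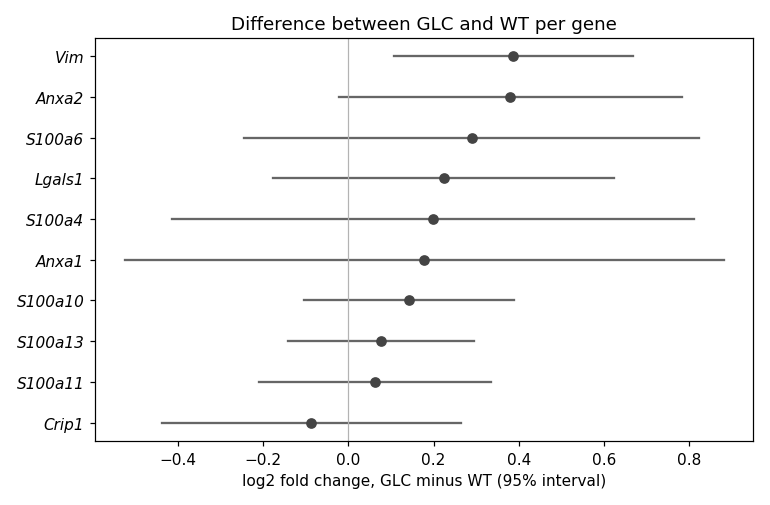
Fitted log2 fold change of GLC over WT (horizontal axis) for each of the 10 genes, with its 95% interval as a line. The interval of Vim, from 0.11 to 0.67, is the single one that leaves out 0; those of Anxa1 and S100a4 are the widest.

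The B cell and plasma cell markers were also higher in GLC libraries on average. Of the 13 B cell markers 7 were tested and 4 had a log2 fold change above 0, with a median of 0.44. Their summed level was between 109 and 775 CPM in WT and between 258 and 1184 CPM in GLC, and no marker of that list was at 0 throughout. Of the 10 plasma cell markers 8 were tested and 6 were above 0, with summed levels of 180.3 to 527 CPM in WT and 329.97 to 787 CPM in GLC. In a fit that also held each library's mean over the 7 tested B cell markers, Vim had a log2 fold change of 0.37 (SE 0.14). Anxa2 was then at 0.23 (SE 0.15), Lgals1 at 0.05 (SE 0.16), S100a6 at 0.01 (SE 0.16), S100a4 at -0.067 (SE 0.25) and Anxa1 at -0.14 (SE 0.24). The part of B lineage cells in the levels of these genes was not tested. In bulk samples such as these, fewer cells of a type and less RNA per cell cannot be told apart.

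Across the 11 libraries the genes did not vary as 1 block. Of the 45 pairs of genes, 39 had a positive Pearson r of log2 CPM, and 15 passed a permutation test of 100000 resamples with Benjamini-Hochberg adjustment. S100a4 and S100a6 lie 6.84 kilobases apart on chromosome 3, with 1 protein-coding gene between them. They had the highest r of all pairs, r = 0.925 (permutation p = 6e-05, adjusted p = 0.0027), and Spearman's rho = 0.909 (permutation p = 0.00022, adjusted p = 0.0099). S100a6 and Anxa1 followed with r = 0.924 (permutation p = 0.00025, adjusted p = 0.00562) and rho = 0.855 (permutation p = 0.00168, adjusted p = 0.0189). In this trio the highest library was GLC replicate 78 and the lowest were WT replicates 2 and 4.

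Vim, S100a10 and S100a11 formed a second set, with another highest library. Vim and S100a10 had r = 0.846 (permutation p = 0.00138, adjusted p = 0.0157) and rho = 0.818 (permutation p = 0.00333, adjusted p = 0.03). S100a10 and S100a11, the second chromosome 3 pair, had r = 0.825 (permutation p = 0.0018, adjusted p = 0.0162) and rho = 0.8 (permutation p = 0.00446, adjusted p = 0.0334). For these 3 genes GLC replicate 11 was the highest library. GLC replicate 78, the highest library of the trio above, ranked 2 of 11 for Vim and S100a11 and 6 of 11 for S100a10. Between the sets no pair passed. Across them r ran from 0.077 for Anxa1 with S100a10 to 0.464 for S100a4 with S100a11 (permutation p = 0.153, adjusted p = 0.275; rho = 0.536, p = 0.0943, adjusted p = 0.202). It was 0.171 for S100a4 with S100a10 (permutation p = 0.614, adjusted p = 0.703; rho = 0.182, p = 0.597, adjusted p = 0.746) and 0.305 for S100a6 with Vim (permutation p = 0.362, adjusted p = 0.479; rho = 0.127, p = 0.713, adjusted p = 0.845). S100a13, which lies 79.2 kilobases and 4 protein-coding genes before S100a4, had r of -0.111 and -0.044 with S100a4 and S100a6, and 0.801 with S100a10 (permutation p = 0.00321, adjusted p = 0.0206; rho = 0.745, p = 0.0114, adjusted p = 0.0393). Anxa2 and Lgals1 passed with genes of both sets, and Crip1 passed with none of the other 9.

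Each relation was computed again without the outermost libraries. Without the 2 libraries farthest from the median of the first gene, r was 0.847 for S100a4 with S100a6, 0.841 for S100a6 with Anxa1, 0.701 for S100a10 with Vim, 0.779 for S100a10 with S100a11 and 0.707 for S100a10 with S100a13. With these 9 libraries 0 of the 45 pairs passed after adjustment, while the sign of r in these pairs stayed the same. Leaving out the extremes of a gene can lower r, and it lowers the number of libraries. The libraries left out differ by gene. Between the sets, r of Anxa1 rose from 0.26 to 0.641 with S100a11, without GLC replicates 9 and 11. It rose from 0.077 to 0.434 with S100a10, without GLC replicate 11 and WT replicate 3. Every other pair between the sets had a lower r than over all 11 libraries. Inside the first set, r of S100a4 with Anxa1 fell from 0.841 to 0.673, so the gap between the sets depended on the libraries used. With deviations from each group's mean in place of the levels, 8 pairs passed, all among the 15, and r was 0.928 for S100a4 with S100a6 and 0.875 for S100a10 with Vim. The sets were named after these values were seen.

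**Figure D3:**
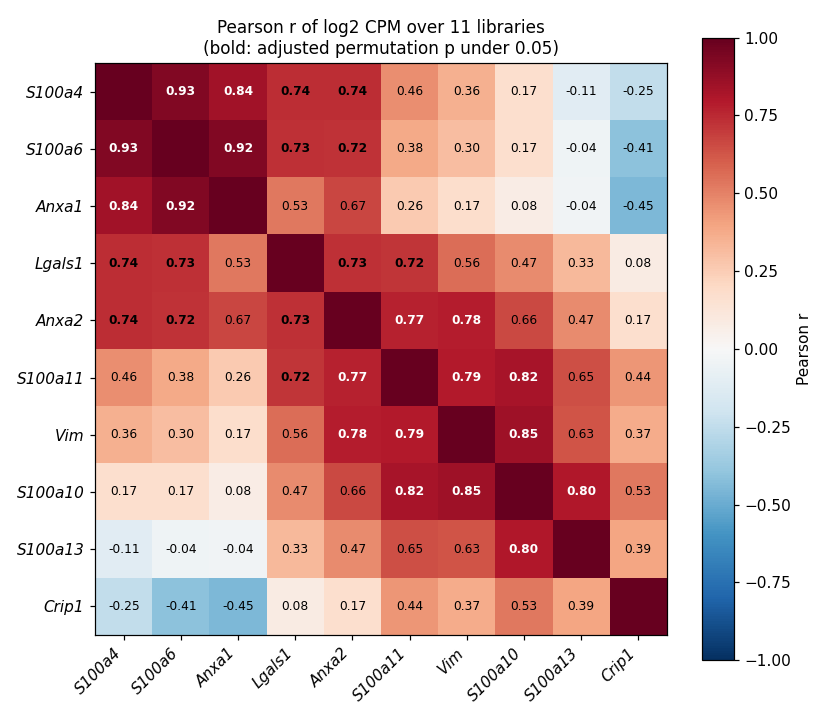
Pearson r of log2 CPM over the 11 libraries for each pair of the 10 genes, in colour and digits, with bold digits where the adjusted permutation p is under 0.05. S100a4, S100a6 and Anxa1 share r of 0.841 or more in the upper left, S100a10, S100a11 and Vim share r of 0.793 or more further down, and Crip1 has no bold digit.

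The spread between libraries was large for 5 of the 10 genes, set against other genes of similar level. The biological coefficient of variation, the spread that remains in the fit after counting error, was 28.4% for S100a6, 21.8% for Anxa2, 21.6% for Lgals1, 19.3% for Crip1 and 15.7% for Vim. Each of these 5 lay above percentile 90 of the genes within 0.5 log2 CPM of its own level, and 10 of 10 lay above the median of such genes. Over all genes the common value was 16.01%. From lowest to highest library the ratio was 3.67 for Anxa1, 3.40 for S100a6, 2.96 for S100a4 and 2.49 for Anxa2, against 1.48 for S100a13.

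Other S100 genes were scarce, while several other annexins and galectins could be tested. None of the 13 other S100 genes listed passed the filter on low counts, and 12 of them were in the table; S100a8 and S100g had 0 counts, and the most abundant, S100a1, had 70 counts over the 11 libraries. Of 10 other annexins 5 were tested, and 0 passed. Anxa6, a large annexin with a doubled core, was the most abundant in CPM, with 281 ± 10.1 CPM in WT (SD, n = 5), 282 ± 31.7 CPM in GLC (SD, n = 6) and a log2 fold change of 0.01 (SE 0.08). Anxa5, the phosphatidylserine binder, was at 0.02 (SE 0.08), Anxa11 at 0.22 (SE 0.09), Anxa4 at 0.52 (SE 0.26) and Anxa7 at 0.17 (SE 0.13). Of 8 other galectins 4 were tested, and 0 passed: Lgals9 was at 0.06 (SE 0.08), Lgals8 at -0.05 (SE 0.07), Lgals3 at 0.20 (SE 0.29) and Lgals4 at 0.06 (SE 0.16). Of 23 intermediate filament and LIM genes 13 were tested, 9 with a log2 fold change above 0 and 0 past the threshold. Plec, which encodes plectin, a linker of vimentin to other filaments, was at 670.3 ± 106 CPM in WT (SD, n = 5) and 843 ± 234 CPM in GLC (SD, n = 6), a log2 fold change of 0.33 (SE 0.17), Zyx at 0.21 (SE 0.09), Lmnb1 at 0.23 (SE 0.13) and Lmo4 at -0.14 (SE 0.08). The 30 actin and cortical cytoskeleton genes had a median of 0.02, with 22 above 0 and 0 past the threshold, and those of smallest p were the actin capping gene Capg at 0.26 (SE 0.13) and Lcp1 at 0.18 (SE 0.10).

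Other genes of the effector and memory state had a wider spread of fold changes. Of 28 such genes, none of them among the 10, 23 had a log2 fold change above 0 and 5 below, with a median of 0.30 and 0 past the threshold. Among those of smallest p were Il18rap at 0.64 (SE 0.22), Nkg7 at 1.07 (SE 0.37) and Hopx at 0.59 (SE 0.21). Of 19 naive T cell genes 17 were below 0, with a median of -0.14 and 0 past the threshold; Lef1 was at -0.20 (SE 0.09), Il7r at -0.22 (SE 0.10), Klf3 at -0.18 (SE 0.09) and Ccr7 at -0.32 (SE 0.16). Of 22 regulatory T cell genes 21 were tested and 21 were above 0, with a median of 0.28 and 0 past the threshold. Lrrc32 and Foxp3 were both at 0.64 (SE 0.20 and 0.21). The lists overlap: Tnfrsf4 and Klrg1 are on the regulatory and the effector and memory lists, and Capg is on the regulatory and the actin lists. Of 28 cell cycle genes 21 were above 0, with a median of 0.33 and 0 past the threshold. Of natural killer markers 6 of 8 were tested and 5 were above 0, with Eomes at 0.67 (SE 0.27), and of 9 dendritic cell markers 3 were tested and 2 were above 0. Of the 2 CD8 markers Cd8b1 was tested, at 0.15 (SE 0.15), and of 6 erythroid markers none was.

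S100a4, S100a6, Anxa1 and Lgals1 passed by Pearson's r with the mean of the effector and memory list, of which S100a6 alone also passed by Spearman's rho. These relations were chosen after the values were seen, among 50 between the 10 genes and the means of 5 lists (effector and memory, regulatory, naive, cell cycle and B cell). The effector and memory mean and the regulatory mean share Tnfrsf4 and Klrg1. For S100a6, r with the effector and memory mean was 0.909 (permutation p = 0.00012, adjusted p = 0.006) and rho was 0.864 (permutation p = 0.00123, adjusted p = 0.0455), the single relation to pass by both measures. Without WT replicates 2 and 4, the libraries farthest from the median of the list, r was 0.807. For S100a4, r was 0.85 (permutation p = 0.0013, adjusted p = 0.013) and rho 0.782 (permutation p = 0.00661, adjusted p = 0.0826), and r was 0.719 without those libraries. For Anxa1, r was 0.768 (permutation p = 0.00624, adjusted p = 0.0433) and rho 0.655 (permutation p = 0.033, adjusted p = 0.183), and r was 0.466 without those libraries. For Lgals1, r was 0.739 (permutation p = 0.0098, adjusted p = 0.0445) and rho 0.627 (permutation p = 0.0436, adjusted p = 0.188), and r was 0.618 without those libraries. For Vim, r was 0.285 (permutation p = 0.393, adjusted p = 0.562), rho was 0.209 (permutation p = 0.54, adjusted p = 0.729), and r was 0.072 without those libraries. For Crip1, r with the same mean was -0.5 (permutation p = 0.118, adjusted p = 0.226), rho was -0.618 (permutation p = 0.048, adjusted p = 0.188), and r was -0.43 without those libraries. S100a10, S100a11, S100a13 and Anxa2 did not pass with this mean by either measure, with r of 0.069, 0.228, -0.078 and 0.584. The B cell mean gave r of 0.881 with S100a6 (permutation p = 0.00116, adjusted p = 0.013; rho = 0.664, p = 0.0309, adjusted p = 0.183), and 0.677 without WT replicates 2 and 4. With Anxa1 it gave 0.895 (permutation p = 0.00054, adjusted p = 0.013; rho = 0.782, p = 0.00645, adjusted p = 0.0826), and 0.711 without those libraries. S100a4 (r = 0.752, permutation p = 0.00779, adjusted p = 0.0433; rho = 0.609, p = 0.0525, adjusted p = 0.188) and Anxa2 (r = 0.755, permutation p = 0.00699, adjusted p = 0.0433; rho = 0.527, p = 0.1, adjusted p = 0.239) also passed with it by r, and were at 0.503 and 0.336 without those libraries. With the regulatory list, r passed for S100a6 (0.859, permutation p = 0.00121, adjusted p = 0.013; rho = 0.736, p = 0.0131, adjusted p = 0.131), Anxa1 (0.804, permutation p = 0.00328, adjusted p = 0.0273; rho = 0.673, p = 0.0284, adjusted p = 0.183) and S100a4 (0.725, permutation p = 0.0116, adjusted p = 0.0483; rho = 0.536, p = 0.0941, adjusted p = 0.239). Without GLC replicate 78 and WT replicate 2 these were 0.646, 0.563 and 0.391. Crip1 passed with the regulatory list by rho alone and in the negative direction (rho = -0.845, permutation p = 0.00182, adjusted p = 0.0455, r = -0.669, permutation p = 0.0239, adjusted p = 0.0746). With the naive list, S100a6 passed by r alone (r = -0.75, permutation p = 0.0088, adjusted p = 0.044, rho = -0.6, permutation p = 0.0566, adjusted p = 0.189). That r was -0.354 without GLC replicate 78 and WT replicate 2.

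**Figure D4:**
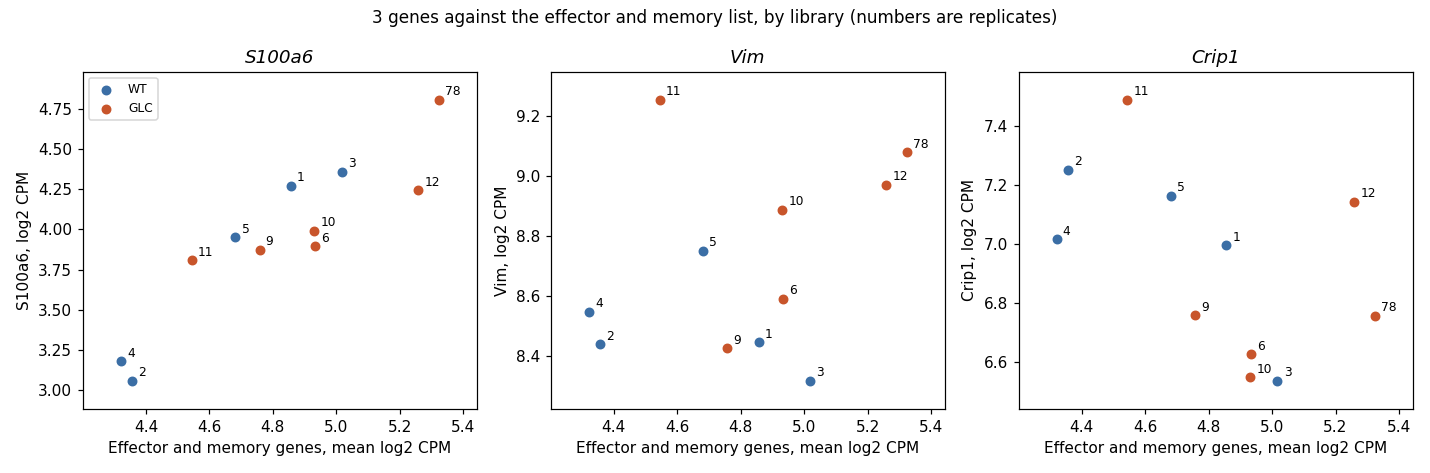
Log2 CPM of S100a6, Vim and Crip1 (vertical axes) against the mean log2 CPM of 28 effector and memory genes (horizontal axis) in the 11 libraries, numbered by replicate. S100a6 is lowest in WT replicates 2 and 4 and highest in GLC replicate 78 (r = 0.909), while GLC replicate 11 is highest for Vim and Crip1 with the lowest list mean of the GLC libraries.

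The genes most like S100a4 and Vim across the 11 libraries, searched among 8124 annotated protein-coding genes, were different ones. For S100a4 they were Ece1, Egln3, Sorl1, Zmiz1 and the chemokine receptor gene Cxcr3, with Pearson r between 0.877 and 0.932. For Vim they were Piezo1, Fmnl1, Cd9, Rnh1 and Idh3a, with r between 0.887 and 0.915. These were picked as the highest of many and are given as a description.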

How the data were processed

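The table deposited by the authors holds raw, unscaled read counts per Ensembl gene for 11 libraries. STAR, featureCounts and the build mm10 are named in the submitters' processing notes. Their versions, the annotation, the strand setting and the treatment of multi-mapping reads were not stated there. Gene symbols, positions and exon lengths came from GENCODE M21 (GRCm38), which matched 55230 of 55471 identifiers. S100a4 shares exon bases with Gm42674 and Anxa2 with Gm16144, each with 0 counts.

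Counts were tested in R 4.3.3 with edgeR 4.0.16 (filterByExpr, TMM scaling, glmQLFit and glmQLFTest, two-sided, 5 WT against 6 GLC libraries, no covariates), with Benjamini-Hochberg adjustment over 12404 genes and a threshold of 0.05. SEs and 95% intervals came from the quasi-likelihood F statistic. A prior count of 2 went into log2 CPM. The labels do not say that libraries of a group came from separate mice beyond their numbers, so p-values measure the spread between these libraries. The edgeR and permutation steps were tested on simulated data. Limma 3.58.1 (voom) and DESeq2 1.42.0 were alternatives. The 10 genes and all lists were chosen with earlier results of these data known. Named genes were the 10, up to 4 of smallest p per list, detected paralogs, and the 5 most correlated with S100a4 and with Vim at a mean log2 CPM over 3; names in other places were chosen after values were seen. One gene that this rule names is not reported here.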

Additional observations from a re-analysis of the deposited data

Results flagged for a closer look

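Of 20 groups checked (10 genes in 2 groups), 2 had a library far from the others of its group, where chance gives about 1 in 20. Both flags fell on the same library, for S100a6 and Anxa1, whose levels varied together (r = 0.924). The 20 checks were therefore not independent, and the count of 2 cannot be set against that rate. GLC replicate 78, pooled from 2 mice, had 27.8 CPM of S100a6, against at most 18.8 CPM in the other GLC libraries. The same library had 3.76 CPM of Anxa1, against at most 2.32 CPM in the other GLC libraries.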

How the results depend on the processing

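Under 24 other settings and left-out libraries, the 10 fold changes gave 240 values, of which 236 kept their direction and side of the threshold and 4 changed sign. Among these settings, an adjusted p threshold of 0.1 used the main fit again, so its 10 fold changes could not differ. With the B cell markers in the fit S100a4 was at -0.067 and Anxa1 at -0.14 on the log2 scale. With 1 library left out Anxa1 lay between -0.028 (without GLC replicate 78) and 0.36; it was at -0.10 without GLC replicates 9 and 78. None of the 10 genes passed in any of these fits, where the smallest adjusted p was 0.656. Over all genes, 0 were called by edgeR (563 at an unadjusted p under 0.05, 320 without WT replicate 2, 366 without GLC replicate 78), 1 with no filter on low counts and 2 by DESeq2. The median log2 fold change of the 10 genes lay between 0.10 and 0.27 with 1 library left out. It was 0.03 with the B cell markers in the fit, 0.11 with the macrophage markers, and 0.32 by limma-voom with quality weights, where 3 of the 10 had an unadjusted p under 0.05. Only Cd68 and Ccr2, the macrophage and monocyte markers past the filter, entered the macrophage fit. Ccr2 is also on the effector and memory list, so that fit does not stand for macrophage content alone. The number of gene pairs passing, 15, was 8 on deviations from group means, 0 without the 2 farthest libraries, and between 4 (without GLC replicate 78) and 13 with 1 library left out. The cause of these changes in the number of pairs was not tested. Neighbour pairs in the level order that passed numbered 6 or 7 with 1 library left out. No paired analysis was possible because the groups share no replicate number. Low counts limit S100a4 (at most 85 in a library) and Anxa1 (at most 49).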

Other observations

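S100a14, an S100 gene too low for the filter and named after its values were seen, had 0, 0, 2, 2 and 0 counts in WT replicates 1 to 5. In GLC replicates 6, 78, 9, 10, 11 and 12 it had 6, 5, 5, 6, 9 and 5 counts. Each GLC library thus lay above each WT library, as it did for 0.153% of the 3913 genes that were outside the main test and had at least 20 counts in all. In the edgeR fit with no filter on low counts its p was 0.000988 before adjustment and 0.701 after it. S100a1 had between 0 and 12 counts in a library, with overlapping groups.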
